A study of Mus musculus with 13 samples.

Results

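Promoter R-loops that were called in all 9 untreated DRIP-seq libraries of N2a cells, a mouse neuroblastoma line, are described here: 1953 of the 69497 regions found in any of those libraries. Peaks of the 9 libraries that overlapped or touched were merged into regions. A region was kept when it was narrower than 5000 bases, when a peak of each of the 9 libraries overlapped it, and when its midpoint lay within 1 kb of a transcript start of the mm9 annotation (GENCODE vM1). The regions were thus selected on the peak calls of these same libraries, and their levels are given as a description. Of 7460 regions called in 9 of 9 libraries, a further 563 lay at a transcript start but were 5000 bases or wider and were left out.

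The cells were transfected with a scramble siRNA (siScramble), with siRNA against DDX1 (siDDX1) or with siRNA against EXOSC3 (siEXOSC3), with 3 untreated libraries for each siRNA. In a further library of each siRNA the genomic DNA was digested with RNase H before the pull-down. All 12 lists came from the same parental cell line, and an siRNA lowers a transcript without deleting its gene. The design asks where R-loops change when either protein is depleted. The label of a library and the treatment written into its peak names differed in 12 of 12 lists. Lists titled siScramble held peaks named siDDX1, lists titled siDDX1 held peaks named siEXOSC3, and lists titled siEXOSC3 held peaks named siScramble. The genotype field goes with the title and the file name goes with the peak names. Groups are given here by title, as "labelled siDDX1" and so on, and a group called higher or lower is so only under the titles.

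An R-loop forms when RNA, often the nascent transcript, pairs with its template and leaves the other DNA strand unpaired. Promoters with CpG islands are known sites, because G-rich RNA made just after the start pairs stably with the C-rich template. DDX1 is a DEAD-box protein that can unwind RNA paired with RNA or DNA, and EXOSC3 is a cap subunit of the RNA exosome, which degrades RNA in the nucleus and the cytoplasm. In DRIP-seq, genomic DNA is cut with restriction enzymes and fragments that carry a hybrid are captured with the S9.6 antibody, so the fragment sets the resolution. RNase H removes the RNA of a hybrid and serves as the negative control.

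The DNA of a few regions shows what was captured. All sequences are from mm9 and are written 5′ to 3′ on the coding strand of the gene. The first set shows promoters of 3 genes described below, each the 200 bases just before the annotated start, outside any annotated exon. The genes are Ints6 at chr14:63379950-63380149 (minus strand), Hist1h1e at chr13:23714372-23714571 (minus strand) and Rpl30 at chr15:34373396-34373595 (minus strand). Capitals mark, in either orientation, the TATA box (TATAAA), the GC box (GGGCGG), the CCAAT box, the core bound by ETS factors (CCGGAAG) or the NRF1-like motif (GCATGCGC).
Ints6 promoter: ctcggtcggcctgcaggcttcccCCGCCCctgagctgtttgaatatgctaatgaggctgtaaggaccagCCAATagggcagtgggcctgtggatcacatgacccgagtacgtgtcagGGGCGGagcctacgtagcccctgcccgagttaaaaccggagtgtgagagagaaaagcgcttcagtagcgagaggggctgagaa
Hist1h1e promoter: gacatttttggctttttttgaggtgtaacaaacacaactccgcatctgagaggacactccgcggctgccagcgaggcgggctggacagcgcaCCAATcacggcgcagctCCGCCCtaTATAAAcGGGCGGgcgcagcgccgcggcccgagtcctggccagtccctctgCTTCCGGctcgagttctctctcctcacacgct
Rpl30 promoter: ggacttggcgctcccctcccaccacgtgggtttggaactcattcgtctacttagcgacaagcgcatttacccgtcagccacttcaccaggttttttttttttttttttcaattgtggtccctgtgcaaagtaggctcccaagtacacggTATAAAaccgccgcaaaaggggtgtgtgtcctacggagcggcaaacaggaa

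The second set shows the strand that is displaced when the nascent transcript pairs with its template, and capitals mark runs of 4 or more G. In each gene it is the 200-base window, clear of annotated UTRs and inside the region, with the most such runs in the first 1000 bases. The Ints6 window, at chr14:63379160-63379359, held 6 runs and lies in an intron of Ints6. In it, 22 bases are also in the first exon of the lincRNA 4931440J10Rik on the other strand. The Nfkbia window, at chr12:56593105-56593304, held 8 runs, with 18 bases in coding sequence and the rest in an intron. The Hnrnpk window, at chr13:58502965-58503164, held 8 runs and lies in an intron. All 3 genes are on the minus strand.
Ints6 after the start: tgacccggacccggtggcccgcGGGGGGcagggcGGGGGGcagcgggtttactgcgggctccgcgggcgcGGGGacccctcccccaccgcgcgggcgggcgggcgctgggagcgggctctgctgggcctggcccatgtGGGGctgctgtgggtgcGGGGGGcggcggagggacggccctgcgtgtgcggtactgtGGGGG
Nfkbia after the start: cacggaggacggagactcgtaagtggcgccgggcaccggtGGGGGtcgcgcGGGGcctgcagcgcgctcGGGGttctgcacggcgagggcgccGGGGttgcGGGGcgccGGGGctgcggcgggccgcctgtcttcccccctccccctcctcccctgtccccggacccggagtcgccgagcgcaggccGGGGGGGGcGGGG
Hnrnpk after the start: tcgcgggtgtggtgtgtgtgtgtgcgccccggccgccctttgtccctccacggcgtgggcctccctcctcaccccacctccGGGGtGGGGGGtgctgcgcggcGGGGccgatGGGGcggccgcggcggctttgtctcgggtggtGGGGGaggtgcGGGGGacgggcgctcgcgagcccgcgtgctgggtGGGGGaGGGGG

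The third set shows both ends of the Ints6 region, chr14:63378234-63381200, on the plus strand of the genome, with the enzyme site in capitals. The left end, at chr14:63378224-63378247, is a BsrGI site, and the right end, at chr14:63381189-63381212, is an SspI site.
Ints6 left end: ttgaagtcaTGTACAcacatggac
Ints6 right end: gcttttcctAATATTtcaaaaaca

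Single untreated libraries held between 23882 and 42571 peaks. Read totals were not available, so the most frequent background level behind the peaks is used here as a stand-in for sequencing depth. It lay between 0.784 and 1.86 times the untreated mean, with siDDX1 replicate 1 the deepest by this measure. The RNase H libraries reached 1.62 to 2.30 times that mean. The median summit of a promoter region held from 11 to 24 reads in single libraries, which limits the precision of any 1 value. Across all regions called in 9 of 9 libraries, centred log2 levels of 2 libraries correlated with r from 0.71 to 0.85. Over the promoter regions alone, r was from 0.66 to 0.83. Of 22 neuroblastoma identity genes, 5 (22.7%) had a constant promoter region, beside 8.53% of all protein-coding genes, and 9 had no peak within 1 kb of a start. None was found at 0 of 9 glial, 0 of 10 liver, 0 of 10 immune and 0 of 10 muscle and fibroblast markers. At a share of 8.53%, a 0 in lists this short carries little information. A region called in 1 to 8 libraries was found at 6 of the neuroblastoma genes and at 2 of the glial markers.

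Constant promoter regions were mostly regions of coding genes. The nearest transcript start belonged to a protein-coding gene in 1793 regions, to a lincRNA in 45, to a processed transcript in 32, to a snoRNA in 25, to a miRNA in 24 and to an rRNA in 8. The start itself lay inside the region in 1916 of the 1953. In 175 regions coding genes started on both strands within 1 kb of the midpoint. The 1953 regions had 1836 different nearest genes, so 225 of them shared their nearest gene with another region. Of 22380 protein-coding genes, 1909 (8.53%) had a start within 1 kb of the midpoint of such a region, and 13682 had no peak of any untreated library within 1 kb of a start.

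The regions were 2816 bases wide at the median, from 386 to 4999 bases. Just inside the width limit lay Slc35e2 (4990 bases) and Snord23 (4999 bases), and just outside lay Arhgef18 (5004 bases) and SNORD18 (5005 bases). Just inside the distance limit lay Usp7 and Zfp532, whose midpoints were 995 and 996 bases from a start, and just outside lay Irak1 and Ythdf1, both at 1002 bases. Among promoter regions narrower than 5000 bases, 4307 were called in 1 library alone, 719 in 8 of 9 and 1953 in 9 of 9. The median width was 331 bases for those called once and 2080 bases for those called in 8 of 9.

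The ends of the regions followed the restriction digest. At least 1 edge lay on the exact cut position of BsrGI, EcoRI, HindIII, SspI or XbaI in 89.6% of them, and both edges did in 51.7%. Among the 3410 regions of the same width limit that were called in 9 of 9 libraries away from transcript starts, the shares were 82.3% and 32.2%. After a shift of 300 bases, 0.102% of left edges of promoter regions lay on a cut. In 591 regions (30.3%) the merged region was exactly 1 restriction fragment, against 15.6% away from starts. Ywhaz, which encodes a 14-3-3 adaptor protein, and Rpl30, a protein of the large ribosomal subunit, were each covered from end to end by a single peak in 9 of 9 libraries. This held for 67 regions, and in 778 regions no library had such a peak.

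Levels are given as the fold enrichment of the highest peak of a library in the region over its local background, a linear ratio. The peak caller added a constant to both reads and background, so the ratio also depends on depth. The geometric mean over the 9 libraries had a median of 8.74 over the regions, and 5% of them lay above 20.0. The highest level was that of H3f3b, which encodes the replication-independent histone H3.3. Its fold enrichment was 83.4, 136 and 123 in the libraries labelled siScramble, 103, 77.2 and 89.7 in those labelled siDDX1 and 96.8, 88.8 and 132 in those labelled siEXOSC3, so the groups overlapped. The annotated miRNA AC113316.1 ranked next (51.3 to 140), followed by Slc38a2, an amino acid transporter, with a geometric mean of 60.3 and a range of 43.7 to 91.8. Rpl30 had 56.3 (38.5 to 72.3), Mgat4b, which shares its region with the autophagy receptor gene Sqstm1, had 54.1 (37.7 to 68.5), and Ywhaz had 52.7 (41.6 to 79.1). Ubb, a polyubiquitin gene, had 52.5 (42.8 to 69.2), Snord68, a box C/D snoRNA inside the Rpl13 gene, had 51.8 (37.9 to 75.8), and Hnrnpk, an RNA-binding protein of nascent transcripts, had 47.5 (33.9 to 74.9). The last of the 10 highest was the annotated miRNA mmu-mir-689-2, at 56.5 (38.7 to 71.9), between Slc38a2 and Rpl30. Both annotated miRNAs were also called after RNase H digestion. By kind of nearest gene, the median level was 8.68 for protein-coding genes, 8.86 for lincRNAs, 14.9 for snoRNAs, 10.9 for miRNAs and 15.4 for rRNAs. The rRNA value rests on 8 regions, some of which were also called after RNase H digestion, such as n-R5s146 and 5S_rRNA in 3 of 3 libraries. In genes with near-identical copies, such as Ubb, the ribosomal proteins, the histones and the rRNAs, reads could have been shared between copies.

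The median level of the promoter regions was above that of constant regions away from starts in 9 of 9 libraries, by 1.04 to 1.23 times. It was 7.62, 9.73 and 9.31 in the libraries labelled siScramble, 9.60, 6.76 and 8.14 in those labelled siDDX1 and 9.08, 8.56 and 12.6 in those labelled siEXOSC3. These are 8.89 ± 1.12, 8.17 ± 1.42 and 10.1 ± 2.18 (SD, n = 3 each), and the groups overlapped. siEXOSC3 replicate 3 was the highest and siDDX1 replicate 2 the lowest in both classes of region. At the median, peaks covered 77.0% ± 15.1 of a promoter region in libraries labelled siScramble, 70.7% ± 20.0 in those labelled siDDX1 and 79.4% ± 3.69 in those labelled siEXOSC3 (SD, n = 3 each). Coverage ran from 53.0% in siDDX1 replicate 2 to 92.3% in the deepest library, siDDX1 replicate 1. The part of depth in these differences was not tested. How many cells carried an R-loop and how long it lasted cannot be told apart in these bulk libraries.

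**Figure D1:**
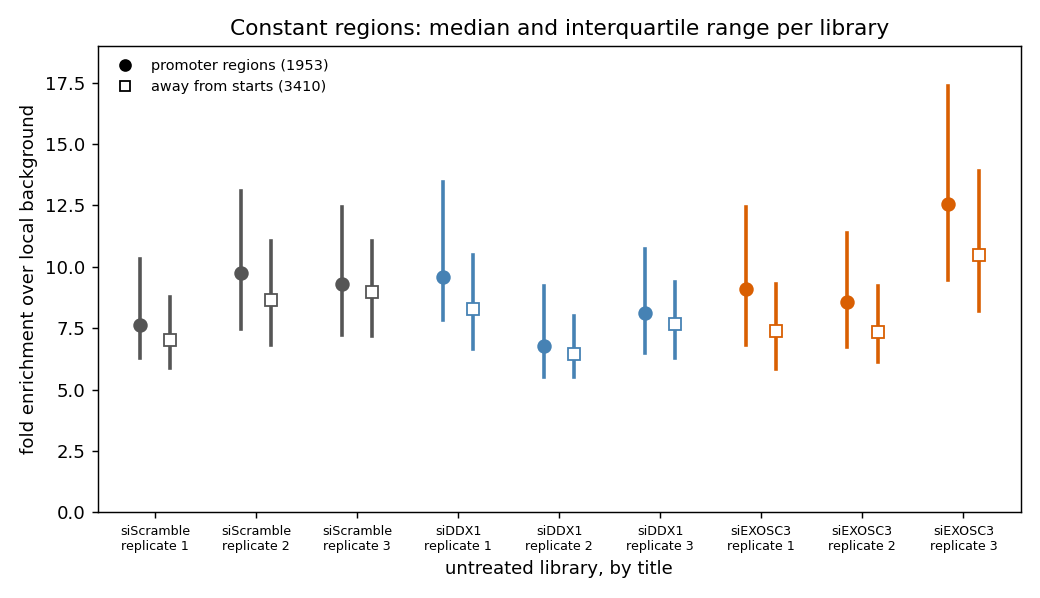
Fold enrichment over the local background (y axis, linear) in each untreated library (x axis, by title) for 1953 constant promoter regions (filled circles) and 3410 constant regions away from transcript starts (open squares), with medians as symbols and interquartile ranges as bars. The promoter median lay above the other in each library, by 1.04 to 1.23 times, and the medians of the 3 groups overlapped.

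The rule itself places the regions around a start, so that cover is higher there than in the flanks is set by the selection and is given as a description. In the 1620 regions with protein-coding starts on 1 strand, the start itself was covered by a peak in 73.7% ± 12.7 of regions (SD, n = 9), with libraries from 55.7% to 89.6%. At 1000 bases upstream and downstream the cover was 47.7% ± 6.82 and 59.2% ± 9.48 (SD, n = 9). The 100-base bin that begins 100 bases downstream held from 1.23% to 2.65% of summits in single libraries, and the bin that begins 600 bases upstream held from 3.46% to 5.25%. Both bins were chosen from the profile, as about the lowest and the highest within 1 kb of the start, so their separation is no test. The bin with the fewest summits was not the same in each library. Over all 1953 regions, summits lay downstream of the start in 46.9% ± 0.911 in libraries labelled siScramble, 47.0% ± 0.746 in those labelled siDDX1 and 46.4% ± 1.69 in those labelled siEXOSC3 (SD, n = 3 each).

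**Figure D2:**
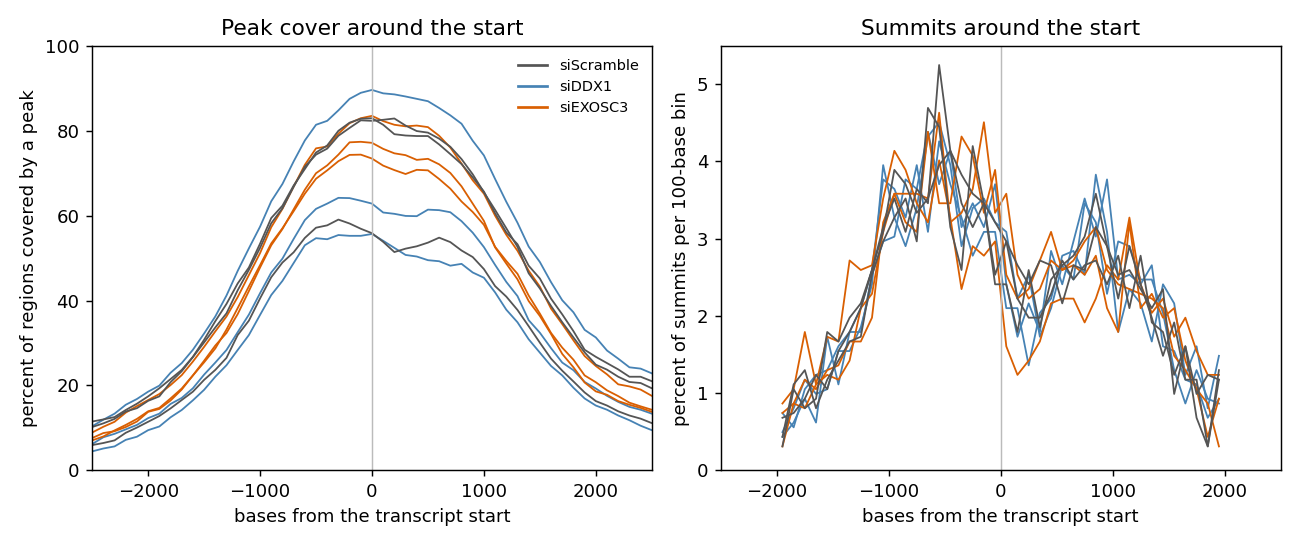
Left, percent of 1620 constant promoter regions with protein-coding starts on 1 strand that are covered by a peak (y axis) at each distance from the start in bases (x axis); right, percent of their summits in 100-base bins (y axis) over the same distance; each line is 1 untreated library, coloured by label. Cover was high at the start, at a mean of 73.7% of regions, and the bin at 100 bases downstream, chosen from the profile, held at most 2.65% of summits in any library.

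The summit of 1 region moved between libraries. The distance between the outermost summits of the 9 libraries was 1997 bases at the median, and it was at most 100 bases in 26 regions. In Ubb the 9 summits lay within 22 bases, in Mgat4b within 3 bases and in Snord68 within 1 base, whereas in Rpl30 they spread over 3109 bases and in Klf3 over 3595 bases. The 20 regions with summits within 50 bases had a median level of 23.2. DNA in the library can come from anywhere on the captured fragment, so a summit is not the position of the hybrid.

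Constant promoter regions were rich in G and C. Their median GC content was 53.6%, with an observed over expected CpG ratio of 0.603, against 48.5% and 0.228 in constant regions away from starts and 52.0% and 0.356 in promoter regions called in 1 to 8 libraries. At the level of genes, the 500 bases after the start had a GC content over 50% with a CpG ratio over 0.6, as CpG islands do, in 69.4% of the 1909 genes with a constant region. The share was 57.2% of 5056 genes with a region called in 1 to 8 libraries, 29.3% of 13682 genes without a peak and 41.3% of all 22380 genes. Where a gene had no peak, its most upstream start was used.

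Downstream of the start the coding strand held more G than C. The excess of G over C in those 500 bases had a median of 7.58% of all G and C in genes with a constant region, 5.97% in genes with a region called in 1 to 8 libraries, 2.90% in genes without a peak and 4.25% in all genes. G exceeded C in 74.4%, 70.2%, 58.3% and 63.0% of genes in the same order. In the 500 bases before the start the median excess was 0 in genes with a constant region. These genes held a mean of 4.64 runs of 4 or more G on the coding strand after the start, against 3.36 runs of C, and genes without a peak held 2.65 and 2.25. Among the regions themselves, level followed G excess little: the median fold enrichment was 8.53, 8.58 and 8.92 in regions of low, middle and high excess (598, 597 and 598 regions). The windows of Nfkbia and Hnrnpk above are extreme cases, and Ints6 had an excess of C over its first 500 bases (a G excess of −5.48%). These shares are descriptions, since nearby genes and gene families share sequence.

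**Figure D3:**
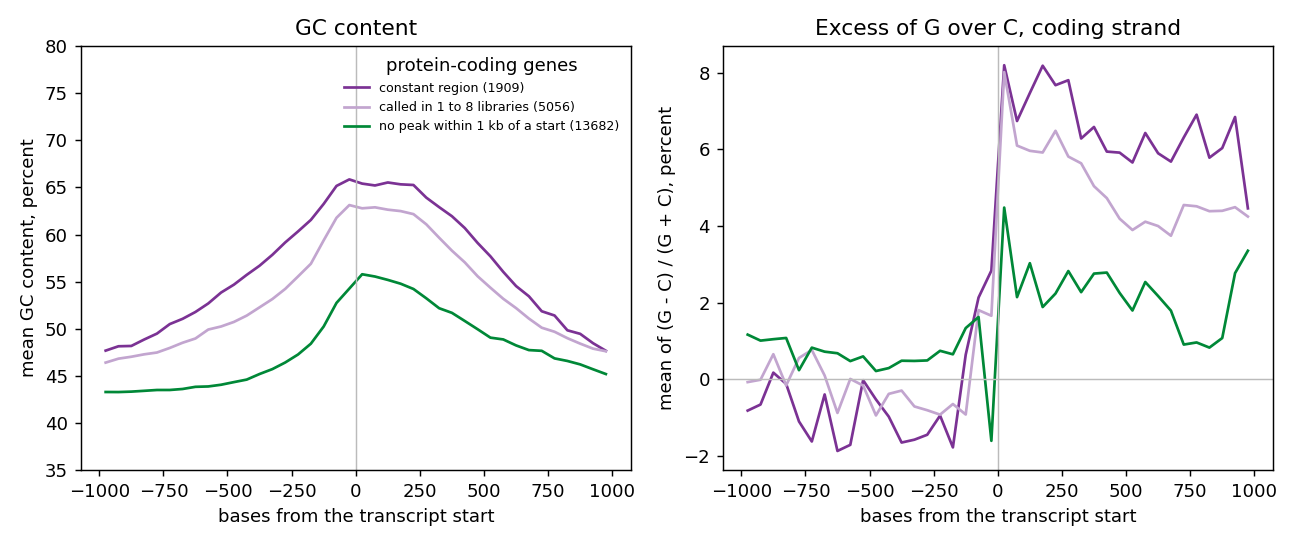
Mean GC content (left, percent) and mean excess of G over C on the coding strand (right, percent of G and C) in 50-base bins around the start of protein-coding genes, by distance in bases; the lines stand for 1909 genes with a constant promoter region (dark purple), 5056 with a region called in 1 to 8 libraries (light purple) and 13682 without a peak (green). The excess rises at the start in all 3 classes and is highest downstream in genes with a constant region, with a median of 7.58% over 500 bases against 2.90% in genes without a peak.

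Short promoter motifs were counted from 250 bases before to 50 bases after the start, on both strands unless stated. GGGCGG, the GC box bound by Sp1, was in 63.2% of genes with a constant region, 54.4% of genes with a region called in 1 to 8 libraries and 40.6% of all genes. For CCGGAAG, the core bound by ETS factors, these were 306 of 1909 genes, 15.5% and 9.66%, and for GCATGCGC, which resembles the NRF1 motif, 3.72%, 4.29% and 2.89%. TATAAA was in 5.40%, 7.36% and 13.4% in the same order, CCAAT in 31.2%, 33.4% and 36.6%, and GGGG on the coding strand in 79.8%, 77.7% and 69.8%. Apart from the GC box, genes with a constant region thus lay within 3 percentage points of genes with a region called in fewer libraries. None of these motifs contains another, though matches can overlap in a promoter. The printed promoter of Hist1h1e holds the TATA, GC and CCAAT boxes and the ETS core, that of Ints6 holds the GC and CCAAT boxes, and that of Rpl30 holds the TATA box. A match is only a match of letters.

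Genes of RNA processing and translation often had a constant promoter region. Of 41 genes for hnRNP, SR and snRNP proteins, which package and splice nascent RNA, 25 (61.0%) had one, against 8.53% of all protein-coding genes. Their 28 regions had a median level of 16.1, against 8.74 over all regions. The highest were Hnrnpk (47.5), Srsf1 (39.1, range 28.1 to 61.4), a splicing factor that also limits R-loops, and Srsf7 (36.1, range 21.5 to 62.4). Of 79 cytosolic ribosomal protein genes, 27 (34.2%) had one and 11 more had a constant region too wide to be counted; only 4 had no peak near a start. After Rpl30 the highest were Rps23 (41.6) and Rps2 (32.1). Of 66 translation factor genes, 20 (30.3%) had one, led by Eif4b (39.7), Eif1 (31.9) and Eif4a2 (28.5). The lists were compared by these shares alone.

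Genes of chromatin, energy supply and protein turnover were represented to differing degrees. Constant regions were found at 17 of 61 chromatin modifiers and remodellers (27.9%; Setd5 at 33.0, Setd1a at 16.7, Smarca5 at 13.9), at 21 of 86 oxidative phosphorylation subunits (24.4%; Cox7c at 26.2, Uqcrq at 14.8), at 11 of 54 DEAD and DEAH box helicases (20.4%; Ddx3x at 22.6, Dhx36 at 14.4) and at 9 of 48 proteasome subunits (18.8%; Psmc6 at 13.0). Among 30 genes whose products resolve or prevent R-loops, 6 had one (20.0%), led by Srsf1 and followed by the helicases Ddx21 (11.4) and Wrn (10.0). Of 67 replication-dependent histone genes 9 had one (13.4%), led by Hist2h3c1 (24.2), and 30 had no peak within 1 kb of a start. Only 6 regions were counted for these 9 genes, and neighbouring histone genes can share a region. Of 42 RNA polymerase II and Mediator genes, 3 had one (7.14%, below the share over all genes), with Med20 at 8.25 and Polr2a at 6.45.

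The exosome pathway and the depleted genes were looked at next. Of 11 annotated exosome subunits 1 (9.09%) had one, Exosc10, the nuclear exoribonuclease of the complex, at 8.57. Of 13 nuclear exosome cofactors 4 (30.8%) had one, including Zfc3h1 (16.3), a scaffold of the PAXT connection, and Srrt (9.34). Exosc3 itself and Bambi, which the study also names, each had a region called in 1 to 8 libraries. Ddx1 had no peak within 1 kb of a start. Of the other genes that the study names, Celf4 had a constant region, with 5.27, 5.57 and 5.40 in libraries labelled siScramble, 7.85, 6.15 and 8.42 in those labelled siDDX1 and 6.21, 7.34 and 11.6 in those labelled siEXOSC3. Its values did not pass the test across groups (limma, adjusted p = 0.244). The paper reports R-loop regions in Celf4 that changed significantly, some up and some down, tested on read counts. Whether they include this region was not checked. Of 12 Integrator subunits, Ints6 and Ints7 (15.8 and 11.7) had one.

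Genes that mark cell types were represented unevenly. The 5 neuroblastoma identity genes were Hand2, a transcription factor of sympathetic neurons, with a level of 23.1 (15.4 to 43.1), Tubb3 (9.63), Phox2a (8.27), Sox11 and Lin28b (8.01). The Lin28b region was also called in the RNase H libraries labelled siScramble and siEXOSC3, at 4.35 and 5.10. Of 22 immediate early genes 5 (22.7%) had a constant region, led by Dusp1 (11.1), Ier5 (11.1) and Fos (10.8). Only 3 of 122 voltage-gated and potassium channel genes (2.46%) had one, among them Cacna1a (5.87) and Kcnh2 (5.43), and 1 of 48 glutamate and GABA receptor genes, Gabbr1 (9.11). None of 39 Hox genes, 1113 olfactory receptors and 51 keratins had one. Of Zfp zinc finger genes 38 of 367 (10.4%) had one, and of kinesin and dynein motors 7 of 47 (14.9%).

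**Figure D4:**
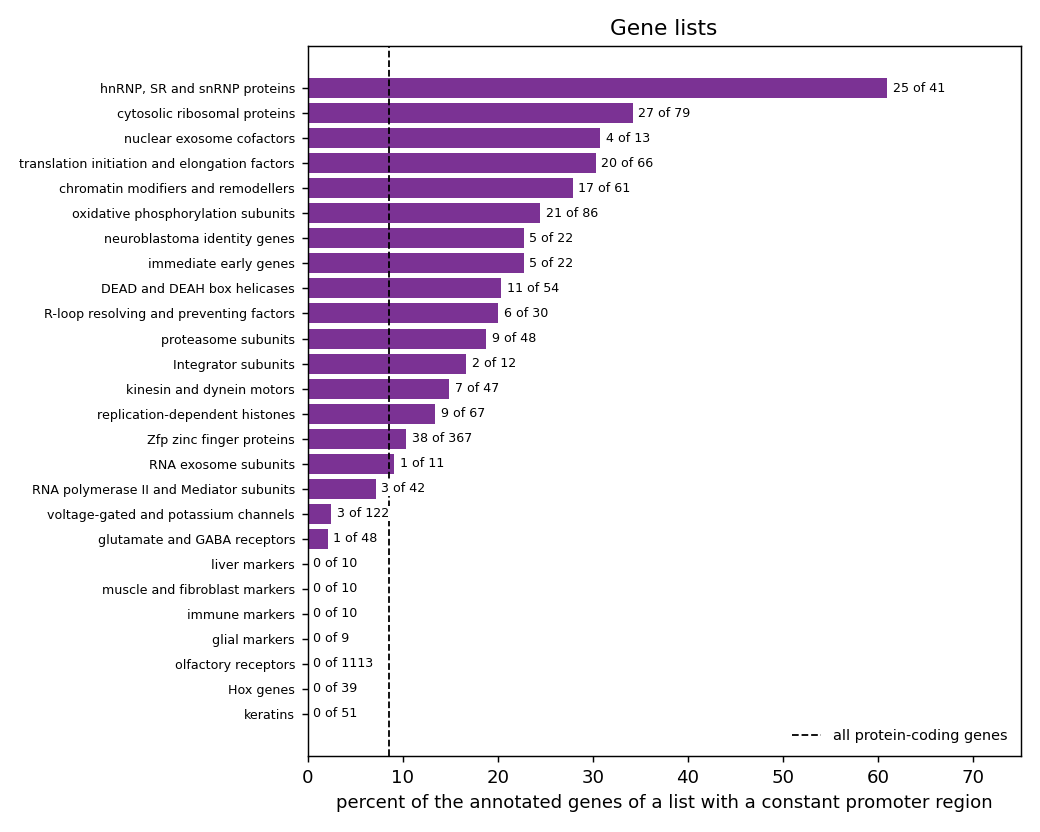
Percent of the annotated genes of each list (x axis) with a constant promoter region, with the counts beside each bar; the dashed line marks 8.53%, the share over all protein-coding genes. Bars for hnRNP, SR and snRNP proteins (61.0%) and cytosolic ribosomal proteins (34.2%) lie highest, and the bars for Hox genes, olfactory receptors, keratins and the markers of other tissues are at 0.

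RNase H digestion removed the call from most regions. In the RNase H library labelled siScramble 55 of the 1953 regions overlapped a peak (2.82%, 95% Wilson interval 2.17% to 3.65%), in that labelled siDDX1 25 (1.28%, 0.869% to 1.88%) and in that labelled siEXOSC3 52 (2.66%, 2.04% to 3.47%). With 1 library per group there is no replicate, and the intervals cover counting error only. In the same order, constant regions away from starts gave 4.37%, 2.79% and 3.31%, promoter regions called in 1 to 8 libraries gave 1.12%, 0.744% and 0.813%, and all merged regions gave 2.46%, 1.59% and 1.92%. Any overlap counted, so a wider region is more easily called. Median widths were 2816 bases for the constant promoter regions and 3065, 540 and 517 bases for these 3 classes. In all, 83 promoter regions were called in at least 1 RNase H library and 18 in all 3 (4.25% and 0.922%), against 2194 and 731 of all 69497 merged regions (3.16% and 1.05%). By background level, the RNase H libraries were deeper than 8 of the 9 untreated ones, and siDDX1 replicate 1 was deeper than those labelled siDDX1 and siEXOSC3.

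The nearest gene was not protein-coding in 8 of the 18 regions called in 3 of 3 RNase H libraries, and in 140 of the 1870 regions called in none, a difference that was not tested. The highest were AC113316.1, with 46.7, 62.2 and 81.1 after RNase H in the libraries labelled siScramble, siDDX1 and siEXOSC3 and 51.3 to 140 without it, and mmu-mir-689-2. At mmu-mir-689-2 the fold enrichment was 116, 156 and 190 after RNase H, above each of its untreated values (38.7 to 71.9). With the added constant, this ratio is higher in a deeper library at equal enrichment. Values with and without RNase H are thus not on the same scale. AC141881.2 gave 24.7, 16.2 and 32.9 after RNase H against 16.8 to 42.8 untreated, and the 5S rRNA gene n-R5s146 gave 15.5, 14.3 and 20.2 against 20.9 to 42.1. Gm9828, which lies beside Btf3, gave 5.02, 4.42 and 5.37 against 20.0 to 49.3, so most of its signal was lost. Among the coding and snoRNA regions of the 10 highest, H3f3b, Slc38a2 and Snord68 were called in 1 RNase H library, at 4.07, 5.47 and 3.45, and Mgat4b in 2, at 4.62 and 4.70.

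Levels of single regions were then compared between groups. The rule fixed a call in each library but used no contrast between groups, so log2 fold enrichment, centred on each library's median, was tested with limma over all 7460 regions called in 9 of 9 libraries. A region that is lost altogether in any library is not in this test. Across the 3 groups 11 of 1953 promoter regions passed (limma F test, adjusted p under 0.05), a share of 0.563% beside 0.402% of all regions tested. At an unadjusted p under 0.05 there were 350 promoter regions and 1206 regions in all. The count rests on single libraries: it was 0 without siScramble replicate 3 (290 at an unadjusted p under 0.05 by limma), 3 or 4 without either other siScramble library, siDDX1 replicate 2 or 3, or siEXOSC3 replicate 1 or 2, 27 without siDDX1 replicate 1, and 14 without siEXOSC3 replicate 3. Over all 7460 regions tested, these fits gave 3, 12 or 13, 75 and 38 in the same order. The F test does not depend on which name of a group is right.

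**Figure D5:**
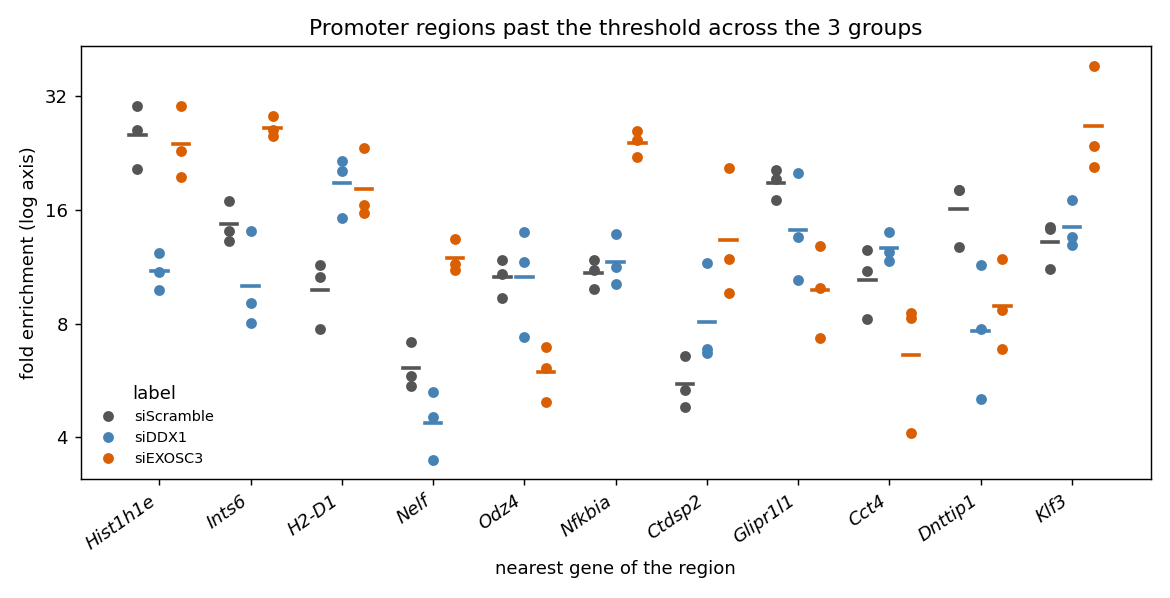
Fold enrichment over the local background (y axis, log scale) of the 11 constant promoter regions that passed the test across the 3 groups, by nearest gene (x axis, ordered by p); points are libraries, coloured by label, and bars are geometric means of the 3 libraries of a group. At Hist1h1e the 3 libraries labelled siDDX1 lie below the other 6, and at Ints6, Nelf, Nfkbia and Klf3 the 3 labelled siEXOSC3 lie above the other 6.

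Against siScramble, 2 promoter regions passed in the libraries labelled siDDX1, beside 0.0402% of all regions tested. At Hist1h1e, the gene of linker histone H1.4, the fold enrichment was 20.5, 26.0 and 30.1 in libraries labelled siScramble, 11.0, 9.84 and 12.3 in those labelled siDDX1 and 23.0, 19.6 and 30.2 in those labelled siEXOSC3. The libraries labelled siDDX1 lay below the other 6 without overlap, and the log2 difference from siScramble was −1.08 ± 0.20 (SE; limma, adjusted p = 0.0482). The region, chr13:23713008-23714689, is 1682 bases wide and also lies within 1 kb of a start of Hist1h2be. At H2-D1, which encodes a heavy chain of MHC class I and has close relatives in the genome, the values were 7.76, 10.6 and 11.4 labelled siScramble, 20.2, 15.2 and 21.6 labelled siDDX1 and 16.5, 15.7 and 23.3 labelled siEXOSC3. The 3 libraries labelled siScramble were the lowest, and siDDX1 differed from siScramble by 1.06 ± 0.20 (SE; limma, adjusted p = 0.0482). The start used for this H2-D1 region may lie inside the gene and not at its upstream promoter. In the window chr17:35402842-35403041, which begins 420 bases after that start, 172 bases lie in coding sequence. A second constant region at H2-D1, 741 bases wide, had an adjusted p of 0.833 across groups by limma. No promoter region passed in this comparison without any 1 of the siScramble libraries, siDDX1 replicate 2 or 3, or siEXOSC3 replicate 1 (131 to 156 had an unadjusted p under 0.05 by limma), and 6 passed without siDDX1 replicate 1. Neither region passed without centring, without trend in the variance prior or with the mean of the peaks in a region (limma, 74, 168 and 145 promoter regions at an unadjusted p under 0.05). Over all regions tested 0 passed in each of these fits, except 16 without siDDX1 replicate 1. If the peak names are right, this comparison is siEXOSC3 against siDDX1.

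Between siEXOSC3 and siScramble 4 promoter regions passed, beside 0.214% of all regions tested. Nfkbia encodes the inhibitor of NF-kappaB. Its values were 11.8, 11.1 and 9.85 labelled siScramble, 13.8, 10.2 and 11.3 labelled siDDX1 and 24.6, 22.1 and 25.9 labelled siEXOSC3. The last 3 lay above all others, and the log2 difference from siScramble was 1.06 ± 0.21 (SE; limma, adjusted p = 0.0271). Klf3, a Krüppel-like transcriptional repressor, was at 11.1, 14.2 and 14.5, at 17.0, 12.9 and 13.6 and at 23.6, 20.8 and 38.6 in the same order, a difference of 0.92 ± 0.20 (SE; limma, adjusted p = 0.0441). At a start inside Ctdsp2, the gene of a small phosphatase of the RNA polymerase II tail and host of Mir26a-2, the values were 4.80, 6.57 and 5.33, then 6.83, 6.67 and 11.6, then 11.9, 9.65 and 20.7. There siEXOSC3 exceeded siScramble by 1.18 ± 0.24 (SE; limma, adjusted p = 0.0268). The constant region at the upstream promoter of Ctdsp2 had an adjusted p of 0.826 across groups by limma.

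Glipr1l1 was the only one of the 4 that was lower in the libraries labelled siEXOSC3. Its values were 17.0, 20.4 and 19.3 labelled siScramble, 20.1, 10.5 and 13.6 labelled siDDX1 and 9.94, 7.34 and 12.9 labelled siEXOSC3. The difference between siEXOSC3 and siScramble was −1.04 ± 0.21 (SE; limma, adjusted p = 0.0341), and the libraries labelled siDDX1 overlapped both. Over all promoter regions the median difference in this comparison was 0.06, against −0.02 over all regions tested. The number of promoter regions past the threshold was 0 without siScramble replicate 2 or 3 or siEXOSC3 replicate 1 (222 to 240 had an unadjusted p under 0.05 by limma), 1 without siScramble replicate 1 or siEXOSC3 replicate 3, 2 without siEXOSC3 replicate 2 and 10 without siDDX1 replicate 1. It was also 0 without centring (limma, 173 at an unadjusted p under 0.05). Over all regions tested these fits gave from 1, without centring, to 34, without siDDX1 replicate 1. If the peak names are right, this comparison is siScramble against siDDX1.

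Between siEXOSC3 and siDDX1 10 promoter regions passed, beside 0.442% of all regions tested. Ints6 encodes a subunit of Integrator, which cleaves nascent transcripts of RNA polymerase II. The region also lies within 1 kb of a start of 4931440J10Rik. Its values were 14.1, 16.9 and 13.3 labelled siScramble, 14.1, 9.07 and 8.02 labelled siDDX1 and 26.1, 25.1 and 28.3 labelled siEXOSC3. The 3 libraries labelled siEXOSC3 lay above the other 6, and siEXOSC3 exceeded siDDX1 by 1.18 ± 0.22 on the log2 scale (SE; limma, adjusted p = 0.0192). The differences from siScramble were −0.42 ± 0.22 for siDDX1 and 0.76 ± 0.22 for siEXOSC3, and neither passed (limma, adjusted p = 0.649 and 0.102). With the recovered summit reads over depth as the level, the difference between siEXOSC3 and siDDX1 was 0.72 and did not pass (limma, adjusted p = 0.0748). The paper reports a significantly changed R-loop region at Ints6 in depleted cells against scramble, tested on read counts, and describes reduced expression there. Whether it is this region was not checked.

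Nelf, which encodes the nasal embryonic LHRH factor and not the elongation factor of the same name, was at 5.80, 5.47 and 7.15 labelled siScramble, 3.49, 5.26 and 4.53 labelled siDDX1 and 11.1, 11.5 and 13.4 labelled siEXOSC3. The groups did not overlap, and siEXOSC3 exceeded siDDX1 by 1.25 ± 0.24 (SE; limma, adjusted p = 0.0192), with a median summit of 9 reads. Cct4, a subunit of the chaperonin that folds actin and tubulin, was at 8.25, 12.5 and 11.0, at 14.0, 12.4 and 11.7 and at 8.27, 4.10 and 8.52 in the same order, a difference between siEXOSC3 and siDDX1 of −1.14 ± 0.23 (SE; limma, adjusted p = 0.0332). Odz4, a teneurin, was at 9.37, 11.8 and 10.8, at 14.0, 7.38 and 11.7 and at 4.97, 6.12 and 6.95, a difference of −1.04 ± 0.22 (SE; limma, adjusted p = 0.0332). Atf6, a transcription factor of the unfolded protein response, was at 5.58, 13.0 and 8.49, at 11.9, 12.3 and 12.4 and at 5.29, 5.25 and 10.2, a difference of −1.10 ± 0.23 (SE; limma, adjusted p = 0.0339). In these last 3 the libraries labelled siEXOSC3 were below those labelled siDDX1 without overlap.

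The other 5 in this comparison, named after their values were seen, were Hist1h1e (0.91, higher in siEXOSC3), AC164408.1 (−0.99, lower in siEXOSC3), Gatad2a, a subunit of the NuRD complex (0.96), Hist1h2ak, a histone H2A gene (1.11), and Lonrf1 (1.09), with limma adjusted p from 0.0339 to 0.0375. Without single libraries the number past the threshold ran from 0, without siDDX1 replicate 3 (259 at an unadjusted p under 0.05 by limma) or siEXOSC3 replicate 2 (295), to 23, without siDDX1 replicate 1 or siEXOSC3 replicate 3. It was 1 without siEXOSC3 replicate 1 and 2 without siScramble replicate 3 or siDDX1 replicate 2. It was 0 with the mean of the peaks in a region (limma, 352 at an unadjusted p under 0.05) and 2, Ints6 and Nelf, without centring. Over all regions tested these fits gave from 2 to 65. Over all promoter regions the median difference was 0.06, against 0.0046 over all regions tested. If the peak names are right, this comparison is siScramble against siEXOSC3. The 3 comparisons share libraries and are not independent of each other.

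Of the 11 regions of the test across groups, Dnttip1, a subunit of a histone deacetylase complex, passed in none of the single comparisons. Its values were 12.7, 18.1 and 18.1 labelled siScramble, 11.5, 5.05 and 7.74 labelled siDDX1 and 8.69, 6.85 and 11.8 labelled siEXOSC3 (limma F test, adjusted p = 0.0479). The 3 libraries labelled siScramble were the highest. Both other groups were lower than siScramble by a log2 difference of −0.95 ± 0.22 (SE; limma, adjusted p = 0.132 for siDDX1 and 0.0527 for siEXOSC3).

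The spread of a region over the 9 libraries was small, which the selection partly sets. Regions that lost their call in any of the 9 libraries had been left out. The SD of the centred log2 level had a median of 0.30 over the promoter regions and 0.30 over constant regions away from starts. It was lowest at the start of Lsm3 and Xpc (0.08), where the fold enrichment ran from 9.22 to 16.1, followed by Adarb1, an RNA editing enzyme (0.10, 4.83 to 7.90), and Rbbp6 (0.11, 8.79 to 14.3). It was highest at Rps9 (0.74), Btf3 (0.67) and Ahdc1 (0.67). At Rps9, a protein of the small ribosomal subunit, 1 library stood apart: siScramble replicate 1 gave 3.45, and the other 8 gave 9.94 to 30.9. At Btf3 siEXOSC3 replicate 2 gave 5.94 and the others 14.3 to 28.5. None of these 6 passed the test across groups (limma, adjusted p from 0.0652 to 0.999).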

How the data were processed

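The data are peak lists of 9 untreated and 3 RNase H-digested DRIP-seq libraries, 3 untreated and 1 digested per siRNA. The 1 input sample was not analysed here. According to the study's methods 3 plates were seeded per condition, so replicates are separate cultures. Per the submitters' processing notes and the study's methods, reads were aligned to mm9 with Bowtie2 2.4.4 and peaks were called for each library with MACS2 2.2.6 against the input. The authors tested read counts with DESeq2, and those counts were not used here. Per the deposited lists, each peak has a fold enrichment over local background, a linear ratio computed by the authors' peak caller. The deposited lists also hold −log10 p-values, −log10 q-values and a summit position for each peak. The study's methods give default parameters for the alignment and describe no further step for reads with several matches.

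Peaks were merged, annotated with GENCODE vM1 and set against the NCBIM37 (mm9) sequence in Python 3.11.15 with numpy 2.4.6 and pandas 2.3.3. A region's level in a library was its highest peak. The log2 level of all 7460 regions called in 9 of 9 libraries, centred on each library's median, was fitted with limma 3.58.1 (lmFit, eBayes with trend) in R 4.3.3, with all 3 groups in 1 fit and two-sided Benjamini-Hochberg adjusted p-values over all regions. No pseudocount was added before the log, as the deposited ratio already has 1 added to both reads and background. Whole summit reads and background were recovered from the ratio and the −log10 p, and the most frequent background of a library was its stand-in for depth. The code was tested on simulated data. Same-numbered libraries of different groups deviated together with r from −0.12 to 0.11, so replicate numbers did not pair the libraries. The regions and gene lists were chosen with earlier results of these data known. Regions named were the 10 highest, up to 5 per comparison past the threshold, up to 3 per gene list, the 3 with the lowest and the highest SD, up to 5 called in the most RNase H libraries, those nearest the limits of the rule, and the genes the study names. The alternatives covered scaling, peak threshold, merging, overlap, distance to a start, the variance prior and single libraries.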

Additional observations from a re-analysis of the deposited data

How the results depend on the processing

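Counts of promoter regions past the threshold (limma, in the order across groups, siDDX1 against siScramble, siEXOSC3 against siScramble, siEXOSC3 against siDDX1) moved with the processing. They were 1, 0, 0 and 2 without centring (239, 74, 173 and 299 at an unadjusted p under 0.05), which shifts the median of all regions by −0.13, 0.07 and 0.21 in the 3 comparisons. They were 28, 2, 25 and 23 with the recovered summit reads over depth, and 4, 0, 15 and 0 with the mean of the peaks in a region (349, 145, 308 and 352 at an unadjusted p under 0.05). With the replicate block they were 20, 2, 10 and 15, although the numbers did not pair the libraries. Without trend in the variance prior the first and second were 6 and 0 (343 and 168 at an unadjusted p under 0.05). With at least 50% of the region covered, which leaves 688 promoter regions, they were 6, 0, 3 and 5 (61 at an unadjusted p under 0.05 in the second). The second was 1 with peaks up to 1000 bases apart joined, the third was 10 without the 25% of regions with the lowest levels and 9 with a −log10 q of at least 5, and the fourth was 16 with quantile normalization. Leaving out single libraries gave 0 to 27, 0 to 6, 0 to 10 and 0 to 23. Over all regions tested the same 4 counts moved as well. They were 7, 0, 1 and 6 without centring, and 84, 6, 77 and 71 with the recovered summit reads. With the mean of the peaks they were 16, 0, 45 and 2, and with the replicate block 58, 4, 36 and 42. Without single libraries they ran from 3 to 75, 0 to 16, 3 to 34 and 2 to 65. Except for fewer regions or libraries where the setting removes them, the cause was not tested. In 298 refits of single named regions, 0 changed sign, 183 passed the threshold and 115 did not. These regions were chosen because they passed in the main fit, and the refits reuse the same libraries. Some settings leave the estimate unchanged by construction, so the constant sign is no separate support. Constant promoter regions numbered 1288 with joined peaks, 1272 with a −log10 q of at least 5 and 688 with at least 50% of the region covered. RNase H calls fell to 0.717%, 0.512% and 0.819% of regions (siScramble, siDDX1, siEXOSC3) with at least 50% of the region covered, and with a −log10 q of at least 5 to 1.59% (siScramble) and 1.84% (siEXOSC3). Summits lay downstream in 44.1%, 44.5% and 44.1% with starts within 500 bases and in 50.2%, 50.1% and 49.2% within 2000 bases. Summit depths of 11 to 24 reads limit single values.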

Other observations

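Constant promoter regions were spread unevenly over the chromosomes. Chromosome 11 held 230 of them, or 13.9 per 100 protein-coding genes, chromosome 8 held 142 (13.1 per 100) and chromosome 15 held 95 (11.9 per 100). Chromosome X held 33 (3.54 per 100) and chromosome 14 held 47 (4.93 per 100). Genes with a constant region had a median length of 24951 bases, against 23261.5 bases for genes with a region called in 1 to 8 libraries, 12218.5 bases for genes without a peak and 15420.5 bases for all protein-coding genes. Regions whose midpoint lay downstream of the start numbered 1205 (61.7%).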
